A study of Mus musculus with 25 samples.

Results

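The 3 arrays described here, K8 tumor 7 and Lgr5 tumors 1 and 4, are mammary tumors whose RNA carried high levels of skeletal muscle and brown fat genes. They were chosen by their values of Ckm, Ucp1 and Cox8b and are set against 10 other non-squamous tumors, which are K8 tumors 1, 2, 3, 4, 5, 6, 8 and 10 and Lgr5 tumors 3 and 5. Both sets together hold 13 of the 25 arrays of the series. All tumors came from mice in which tamoxifen, injected at 7 to 8 weeks of age, switched on the PIK3CA H1047R mutant of a PI3-kinase subunit through a creERT2 recombinase, driven in the K8 line by the gene of the luminal keratin K8 and in the Lgr5 line by that of the Wnt-pathway receptor Lgr5. Line goes with genetic background, FVB/CD1 for K8 mice and FVB/C57/BL6 for Lgr5 mice (both mixed), and line and background cannot be told apart. Whole pieces of tissue were cryo-homogenized, and whether each tumor is from its own animal is not stated. The remaining 12 arrays are 7 labelled as tumors (K8 tumor 9 and Lgr5 tumors 2, 6, 7, 8, 9 and 10) and 5 labelled as reference glands from K8-creERT2 (2) and Lgr5-creERT2 (3) control mice.

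Skeletal muscle fibres contract through sarcomeres, in which myosin filaments pull on actin filaments under the control of troponin and of calcium released from the sarcoplasmic reticulum. Fast fibres and slow fibres build the same structure from different genes of the same families. Brown fat burns lipid to make heat through the mitochondrial uncoupling protein Ucp1. The mouse mammary gland grows within fat pads that lie on the body wall muscle and enclose lymph nodes, and its ducts are wrapped by myoepithelial cells, which contract with smooth muscle proteins rather than with sarcomeres.

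Values are log2 expression of 1 probe set per gene for 19937 genes, and differences are the mean of the 3 muscle-bearing tumors minus the mean of the 10 other tumors. Because the sets were chosen from these same arrays, every gene of this contrast is described without a test. A gene is called set apart when the means differ by at least 1 and no array of one set lies within or beyond the range of the other. By this rule 338 genes were higher in the muscle-bearing tumors (1.7% of all genes) and 83 were lower (0.416%), or 2.11% in either direction, and nothing about single lists is read from these shares. Over all genes the median difference was -0.02, and from the 5th to the 95th percentile differences ran from -0.37 to 0.56.

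Outside the comparison, several labels did not match the tissue markers. Adipocyte genes (mean of 18) lay at 12.51 to 12.68 in the fat-rich Lgr5 tumors 2, 6, 7, 8 and 9, while the 5 gland-labelled arrays lay at 7.67 to 9.64. Cell cycle genes (mean of 23) lay at 7.05 to 8.05 in the fat-rich tumors, while the gland-labelled arrays lay at 9.34 to 9.87. Over all genes K8 tumor 7 correlated at r = 0.992 to 0.993 with Lgr5 tumors 1 and 4 and at 0.971 to 0.980 with the 8 other K8 tumors compared here. Lgr5 tumor 4 correlated at 0.993 to 0.994 within its set and at 0.975 to 0.976 with Lgr5 tumors 3 and 5, and Lgr5 tumor 1 at 0.992 to 0.994 and at 0.979 to 0.981. Likeness over all genes thus went with the set more than with the line label in all 3 arrays. The set was chosen for shared muscle and brown fat markers, and such genes enter these correlations. They are therefore no evidence about the line labels. Arrays are called by their labels throughout.

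Ckm, the muscle creatine kinase that regenerates ATP in working fibres, had values of 11.50 in K8 tumor 7, 11.07 in Lgr5 tumor 1 and 11.65 in Lgr5 tumor 4, against a lowest, median and highest value of 6.58, 7.22 and 10.28 in the other tumors. Ucp1 had values of 11.30, 9.49 and 10.00 in the same 3 arrays, against 5.46, 5.57 and 8.10 in the other tumors. Cox8b, the muscle and brown fat form of a cytochrome oxidase subunit, had values of 12.49, 11.65 and 11.76 in those arrays, against 5.67, 6.71 and 8.95 in the other tumors. These 3 genes chose the set, and no array overlaps between the sets in any of them.

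Single arrays came close to the muscle-bearing set in 1 marker, and others lay above the median of the other tumors in all 3. K8 tumor 8 had Ckm at 10.28 with Ucp1 at 5.72, and K8 tumor 3 had Ckm at 9.85, Ucp1 at 8.10 and Cox8b at 8.95. Lgr5 tumor 10, which was kept out of both sets for its squamous genes, had Ckm at 10.99, Ucp1 at 7.37 and Cox8b at 10.03. High Ucp1 also occurred without muscle RNA. Lgr5 tumors 6, 7 and 8 had Ucp1 at 12.47, 12.07 and 12.18 with Ckm at 7.11, 7.10 and 7.30. Muscle and brown fat RNA were thus found apart as well as together across the series.

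**Figure D1:**
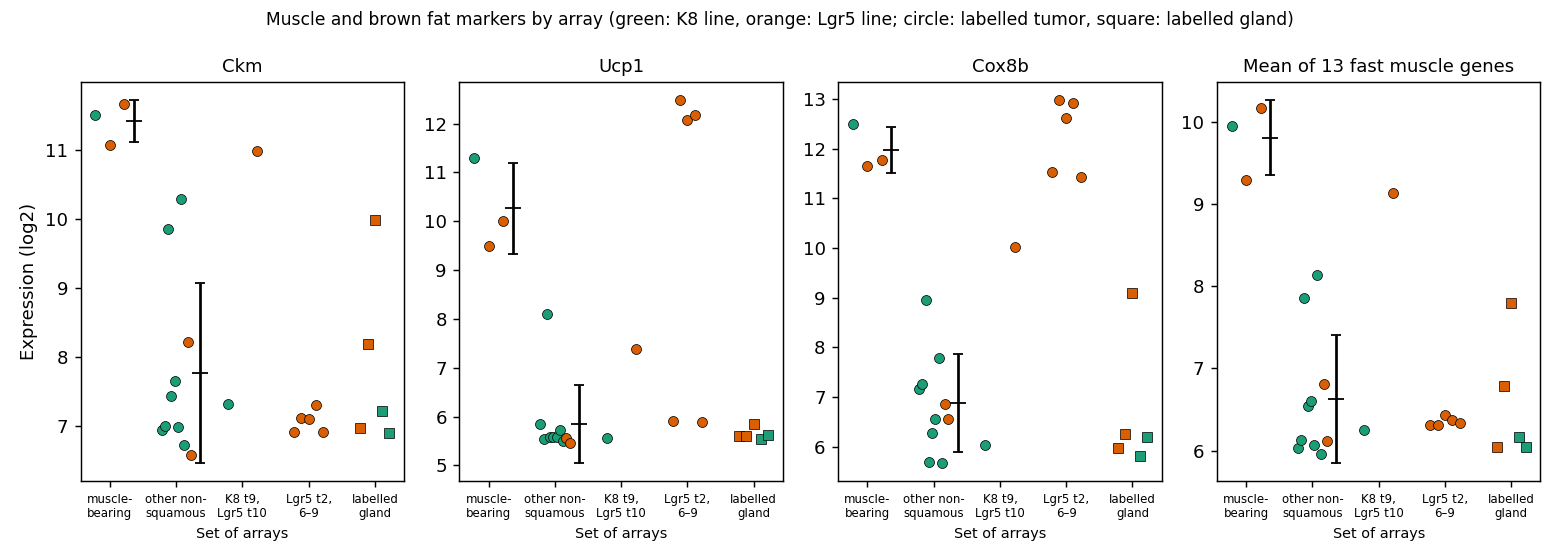
Each point is 1 array, and the y axes give log2 expression of Ckm, Ucp1, Cox8b and the mean of 13 fast muscle genes for the muscle-bearing tumors, the other non-squamous tumors and the arrays outside the comparison (bars: mean and SD of the first 2 sets). The 3 muscle-bearing tumors lie above all 10 other tumors in each panel, Lgr5 tumor 10 lies near them in Ckm, and 3 of the 5 fat-rich Lgr5 tumors lie above them in Ucp1 with low Ckm.

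The promoters of the marker genes and of Myl1, the fast muscle gene with the highest difference, are shown because muscle promoters are known for E-boxes, the sites of MyoD-family factors. Each covers 250 bases before to 50 after the gene's start, from RefSeq on GRCm38.p6, with matches to the E-box letters CANNTG in capitals. The letters read the same on both strands.
Ckm, chr7:19410844-19411143, plus strand: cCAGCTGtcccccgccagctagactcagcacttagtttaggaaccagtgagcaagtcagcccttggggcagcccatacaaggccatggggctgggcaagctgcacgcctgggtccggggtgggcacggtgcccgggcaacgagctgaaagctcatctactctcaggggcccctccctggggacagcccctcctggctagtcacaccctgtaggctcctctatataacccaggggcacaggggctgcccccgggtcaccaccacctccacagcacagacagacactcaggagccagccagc
Myl1, chr1:66945007-66945306, minus strand: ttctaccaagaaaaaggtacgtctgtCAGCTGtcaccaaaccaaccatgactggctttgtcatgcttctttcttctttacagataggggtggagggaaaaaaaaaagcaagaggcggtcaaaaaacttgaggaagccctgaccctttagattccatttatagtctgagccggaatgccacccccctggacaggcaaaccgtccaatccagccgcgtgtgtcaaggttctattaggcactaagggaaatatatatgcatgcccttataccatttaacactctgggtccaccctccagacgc
Cox8b, chr7:140900397-140900696, minus strand: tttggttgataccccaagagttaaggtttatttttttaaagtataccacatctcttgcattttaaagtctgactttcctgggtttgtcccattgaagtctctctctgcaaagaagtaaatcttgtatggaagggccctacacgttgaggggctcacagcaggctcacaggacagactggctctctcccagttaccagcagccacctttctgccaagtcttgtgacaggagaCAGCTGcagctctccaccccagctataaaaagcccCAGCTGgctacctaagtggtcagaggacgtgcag
Ucp1, chr8:83290098-83290397, plus strand: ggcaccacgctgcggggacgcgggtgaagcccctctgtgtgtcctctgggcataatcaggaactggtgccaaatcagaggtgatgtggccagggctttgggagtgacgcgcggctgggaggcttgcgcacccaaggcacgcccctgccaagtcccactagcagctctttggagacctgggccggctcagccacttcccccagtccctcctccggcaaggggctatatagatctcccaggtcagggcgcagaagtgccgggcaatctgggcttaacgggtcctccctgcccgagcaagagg

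Ckm and Myl1 held 1 match each, Cox8b held 2 and Ucp1 held 0 in these windows, and every match had the letters CAGCTG, a subset of CANNTG. Among the 47 promoters found for 37 of the 49 measured skeletal muscle genes, 48.9% held CAGCTG, against 16.3% of all 32851 promoters of the same length. The wider CANNTG was found in 85.1% of the muscle promoters and in 72.3% of all promoters. The MEF2 motif, which reads the same on both strands, was found in 17.0% of the muscle promoters and in 3.19% of all promoters. Of the 273 promoters of genes set apart as higher, 26.7% held CAGCTG, and of the 80 promoters of genes set apart as lower, 18.8% did. In the same higher and lower promoters, the MEF2 motif was found in 7.33% and 7.5%, and CANNTG in 76.9% and 72.5%. A match describes these letters only and is not evidence of binding.

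Fast fibre genes carried the muscle difference. All 13 measured genes of the fast muscle list were set apart as higher, with a median difference of 3.04. The thin-filament gene Tnnt3, a fast troponin T, had values of 11.12, 10.61 and 11.24 in K8 tumor 7 and Lgr5 tumors 1 and 4, against a median of 6.83 and a highest value of 9.09 in the other tumors. Myh1, a fast myosin heavy chain, had values of 9.10, 8.87 and 9.29 in those arrays, against a median of 5.54 and a highest value of 6.37 in the other tumors. Both genes were far apart between the sets, and K8 tumors 3 and 8 were the nearest of the other tumors over the whole list, with list means of 7.86 and 8.14 against 9.29 to 10.17 in the muscle-bearing tumors.

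The other fast genes cover several steps of contraction. Myl1, a fast myosin light chain, differed by 4.52 (22.95-fold). Atp2a1, the calcium pump of fast sarcoplasmic reticulum, differed by 4.16, and Pvalb, a calcium buffer of fast fibres, by 3.96. Myosin heavy chains Myh4 and Myh2 differed by 2.76 and 2.40, the troponins Tnnc2 and Tnni2 by 3.04 and 2.21, and the Z-disc protein Actn3 by 2.91. With K8 tumor 9 and Lgr5 tumor 10 added to the other tumors, 8 of the 13 fast genes and 4 of the 10 muscle energy genes (7 without them, Ckm included) were set apart, since Lgr5 tumor 10 carried muscle genes. In bulk tissue, more muscle cells and more RNA per muscle cell cannot be told apart, and the same holds for every cell type below.

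Slow fibre genes differed little. Of 9 measured, Actn2 (2.06) and Mybpc1 (1.82) were set apart as higher, Casq2 was set apart as lower (-1.50), and the median difference was 0.36. Myh7, the slow and cardiac myosin heavy chain, had values of 5.87, 5.75 and 6.71 in K8 tumor 7 and Lgr5 tumors 1 and 4, and the other tumors had 5.64 to 5.90. Only Lgr5 tumor 4 stood above the range of the other tumors in Myh7, and the same array was highest of the 3 in Myl2 (6.83), Tnni1 (6.64), Myl3 (7.21) and Tnnc1 (6.48). The mean of the slow list was 7.33 in Lgr5 tumor 4, 6.72 in K8 tumor 7 and 6.63 in Lgr5 tumor 1, against 6.29 to 6.67 in the other tumors, so the sets overlapped.

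Genes that fast and slow fibres share were higher as well. Of 17 measured genes of the sarcomere and of calcium release, 13 were set apart as higher and 0 as lower, with a median difference of 2.46. Des, the intermediate filament of muscle, had values of 10.94, 10.62 and 10.72 in K8 tumor 7 and Lgr5 tumors 1 and 4, and the other tumors had 6.36 to 8.54. Acta1, the skeletal muscle actin, had values of 12.67, 12.11 and 12.66 in those arrays, against 8.62 to 11.45 in the other tumors. The other tumors thus held Acta1 over a wide range. The giant filament proteins nebulin (Neb) and titin (Ttn) differed by 3.53 and 2.46. Triadin (Trdn, 3.41) and the ryanodine receptor Ryr1 (1.90), parts of the calcium release complex, were also set apart.

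Myoblast genes differed little, though all 10 differences were above 0 (median 0.14). Of 10 measured genes of muscle progenitors and of developing fibres, only Myf6, a MyoD-family factor of mature fibres, was set apart, with values of 6.99, 6.61 and 6.76 in K8 tumor 7 and Lgr5 tumors 1 and 4, and the other tumors had 5.38 to 5.62. Pax7, the satellite cell factor, had a mean of 6.45 ± 0.04 in the muscle-bearing tumors (SD, n = 3) and 6.40 ± 0.08 in the other tumors (SD, n = 10). Myog, a factor of differentiating myoblasts, averaged 5.93 ± 0.09 in the muscle-bearing tumors and 5.83 ± 0.09 in the other tumors. The sets overlapped in both genes, but not in Myod1 (0.22), Musk (0.25) or Chrna1 (0.40). Of 8 cardiac genes, Myl4 alone was set apart (1.42), with its highest value, 10.03, in Lgr5 tumor 1, and the heart genes Myh6 (0.09) and Myl7 (0.08) differed little.

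Muscle forms of metabolic enzymes were set apart while their partner isoforms were not. Among 12 measured pairs of a muscle or brown fat isoform and its partner, 9 tissue isoforms and 0 partners were set apart. Differences ran from 0.48 to 5.09 for the tissue isoforms (median 1.98) and from -0.46 to 0.22 for the partners (median -0.06). Ckm and Cox8b had chosen the arrays, and among the 10 pairs without them 7 tissue isoforms were set apart, with differences of 0.48 to 4.16 (median 1.63). Pygm, the muscle glycogen phosphorylase, had a mean of 9.88 ± 0.56 in the muscle-bearing tumors (SD, n = 3) and 6.76 ± 0.76 in the other tumors (SD, n = 10), whereas Pygb, the brain form, averaged 10.57 ± 0.08 in the muscle-bearing tumors and 10.93 ± 0.26 in the other tumors. Ckm differed by 3.64 and Ckb, the brain creatine kinase, by -0.46.

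Respiratory chain isoforms showed the same split. Cox7a1 averaged 10.62 ± 0.46 in the muscle-bearing tumors (SD, n = 3) and 8.13 ± 0.26 in the other tumors (SD, n = 10). Its liver-type partner Cox7a2 averaged 10.94 ± 0.08 in the muscle-bearing tumors and 10.96 ± 0.10 in the other tumors. Cox8b differed by 5.09 and Cox8a by 0.14. Of 20 core respiratory chain genes that all cells use, 0 were set apart and the median difference was 0.17. Still, 18 of the 20 differences were above 0. The list means did not overlap, at 10.89 to 11.10 in the muscle-bearing tumors and 10.69 to 10.85 in the other tumors. The 3 tissue isoforms not set apart were Pfkm, Phkg1 and the insulin-regulated glucose transporter Slc2a4, with differences of 0.64, 0.63 and 0.48.

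**Figure D2:**
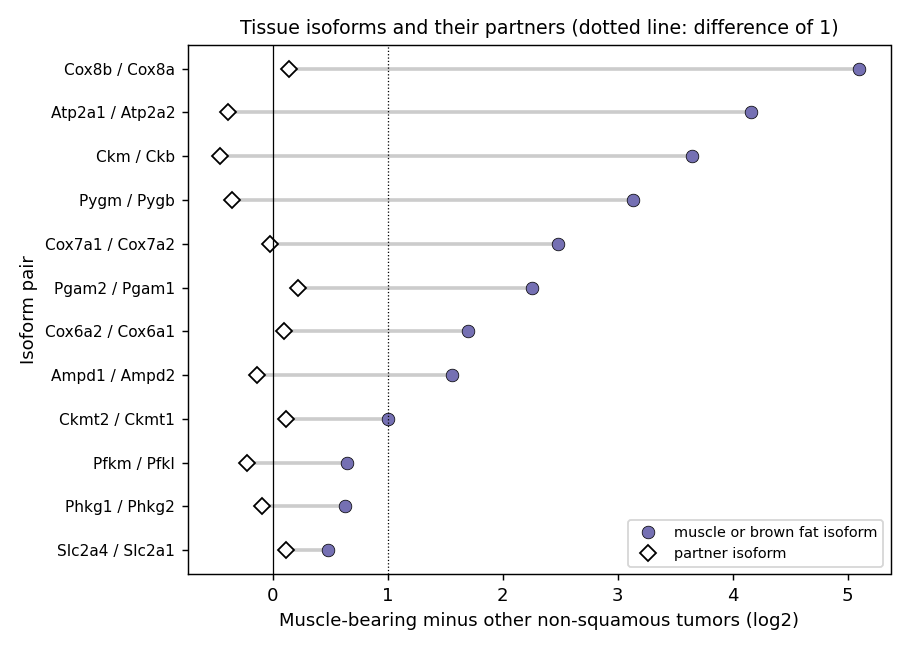
Each row is 1 pair of isoforms, and the x axis gives the difference between the muscle-bearing and the other non-squamous tumors (log2) for the muscle or brown fat isoform (filled circle) and its partner (open diamond). The 12 partners lie between -0.46 and 0.22, and 9 of the 12 tissue isoforms lie at or beyond 1.

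Brown fat genes differed over a graded range. Of 17 measured, 6 were set apart as higher (Ucp1, Cox8b, Cidea, Cox7a1, Otop1 and Dio2) and 0 as lower, and the median difference was 0.98. Ucp1 and Cox8b helped to choose the arrays, and without them 4 of 15 were set apart, with a median of 0.81. Kng2 (0.98), Slc27a2 (0.81) and Acot11 (0.56) differed by less than the threshold, also without overlap. Cidea, a lipid droplet protein of brown adipocytes, had values of 10.38, 9.20 and 9.38 in K8 tumor 7 and Lgr5 tumors 1 and 4, and the other tumors had 6.18 to 7.41. Dio2, the deiodinase that activates thyroid hormone, had values of 8.16, 8.33 and 8.19 in those arrays, against 6.56 to 7.79 in the other tumors. K8 tumor 7 was the highest of the 3 arrays in Cidea, Ucp1, Cox8b, Cox7a1 and Otop1, but not in Dio2. Cox8b and Cox7a1 are muscle genes as well, so they do not separate the 2 tissues. Outside the comparison, the fat-rich Lgr5 tumors had Cox8b at 11.43 to 12.97, Ucp1 at 5.89 to 12.47 and Ckm at 6.90 to 7.30. High Cox8b thus also occurred with low Ckm, and in at least 1 of these arrays with low Ucp1.

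Of the regulators of the brown fat program, Prdm16, Ppargc1a and Zic1 lay near their level in the other tumors and Ebf2 did not. Prdm16, a transcription factor of brown fat identity, averaged 6.70 ± 0.01 in the muscle-bearing tumors (SD, n = 3) and 6.73 ± 0.12 in the other tumors (SD, n = 10). Ppargc1a, a coactivator of mitochondrial genes, averaged 7.78 ± 0.23 in the muscle-bearing tumors and 7.73 ± 0.27 in the other tumors. Zic1, a marker of classical brown fat, differed by 0.02. Ebf2, a factor of brown precursors, lay at 7.48 to 7.63 in the muscle-bearing tumors and at 6.16 to 7.24 in the other tumors. The sets did not overlap in Ebf2, and the difference was just under the threshold. Outside the comparison Ebf2 was at 8.94 to 9.37 in the fat-rich Lgr5 tumors, whose Ucp1 ran from 5.89 to 12.47. Elovl3, a cold-induced fatty acid elongase, overlapped between the sets, at 8.53 in K8 tumor 7, 8.86 in Lgr5 tumor 4 and 5.20 in Lgr5 tumor 1 against 4.87 to 9.60 in the other tumors, where K8 tumor 6 and Lgr5 tumor 5 (8.03) were high.

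General adipocyte genes formed the largest non-muscle group. Of 18 measured, 12 were set apart as higher and 0 as lower, with a median difference of 1.89. Adipoq, the adipokine adiponectin, had values of 11.76, 10.87 and 11.45 in K8 tumor 7 and Lgr5 tumors 1 and 4, against a lowest, median and highest value of 5.66, 7.91 and 10.15 in the other tumors. Plin1, the lipid droplet coat of adipocytes, had values of 11.45, 10.41 and 11.04 in those arrays, against 6.64, 7.83 and 9.40 in the other tumors. The fat-storage gene Cidec (2.87), the glycerol channel Aqp7 (2.85) and the adipokine leptin (Lep, 2.80) were set apart too. The median difference was 2.45 between the K8 arrays alone and 0.90 between the Lgr5 arrays alone.

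Fatty acid synthesis genes, which both adipocytes and milk-making cells use, were higher in 7 of 12 cases. Fasn, the fatty acid synthase, had values of 12.98, 12.44 and 12.92 in K8 tumor 7 and Lgr5 tumors 1 and 4, and the other tumors had 10.68 to 11.98. Thrsp, a lipogenic regulator, differed by 2.73, Acacb by 1.76 and Mlxipl, a glucose-sensing transcription factor, by 1.59. The list's median difference was 1.15. Beside it, 0 of 12 luminal progenitor and milk genes were set apart (median 0.12), and the list means of adipocyte genes did not overlap between the sets (10.43 to 11.31 in the muscle-bearing tumors, 7.86 to 9.76 in the other tumors). With each array's adipocyte mean as a covariate, 0 of the 12 synthesis genes were set apart. Since that mean goes with the set, this fit cannot tell fat from set. Which cells held the RNA of the synthesis genes was not tested.

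Fatty acid oxidation had 1 of 12 genes set apart, Hadhb (1.04), a subunit of the mitochondrial trifunctional protein, with a list median of 0.39. Hexokinase 2 (Hk2, 1.49), the muscle and fat form of the first glycolytic enzyme, was the only one of 14 glycolysis and hypoxia genes set apart, and their median was 0.09. PI3-kinase pathway genes, the pathway of the transgene, had 0 of 17 set apart and a median of -0.09. Pik3ca itself averaged 10.48 ± 0.08 in the muscle-bearing tumors (SD, n = 3) and 10.57 ± 0.05 in the other tumors (SD, n = 10), and its probe set does not separate the mutant from the mouse gene. Akt2, the insulin-responsive Akt, differed by 0.52 and Foxo1, a factor that Akt restrains, by -0.57.

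**Figure D3:**
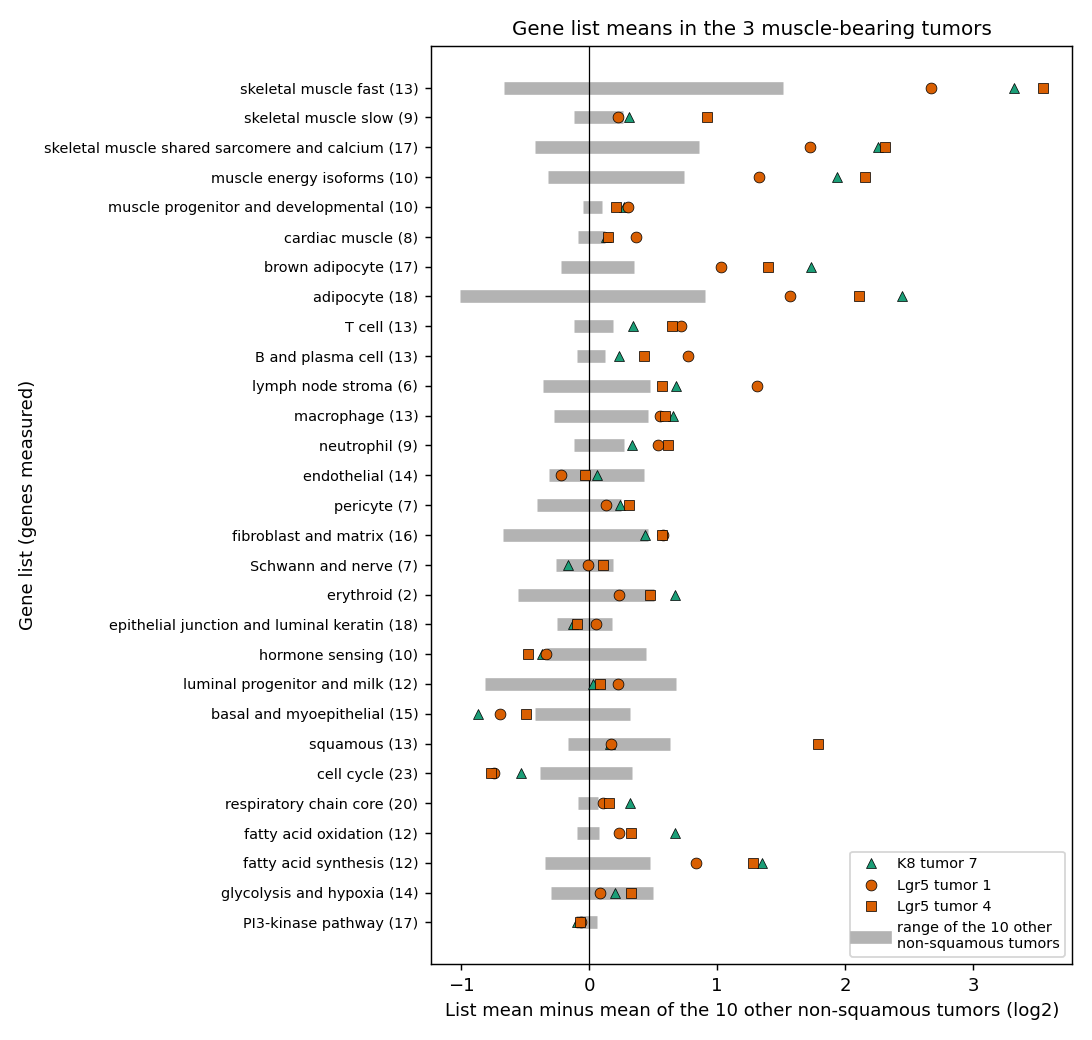
Each row is 1 gene list, and the x axis gives the list mean of each muscle-bearing tumor minus the mean of the 10 other non-squamous tumors (log2), with the range of those 10 as a grey bar. Fast muscle, shared muscle, energy isoform, brown adipocyte, adipocyte and fatty acid synthesis lists lie right of the bar in all 3 tumors, the epithelial list lies within it, and the basal and cell cycle lists lie left of it.

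Lymphoid genes were higher by less, and unevenly. Of 13 T cell genes, Cd3g (1.57), Il7r (1.21) and Cd3e (1.11) were set apart, and of 13 B cell genes only Ms4a1 (1.09), which encodes CD20. Ms4a1 had values of 5.43, 7.12 and 5.77 in K8 tumor 7 and Lgr5 tumors 1 and 4, and the other tumors had 4.98 to 5.09. Lgr5 tumor 1 was also highest of the 3 in Cd79a (7.12) and in Glycam1 (9.54), a gene of lymph node vessels that was at 5.91 in K8 tumor 7, 5.87 in Lgr5 tumor 4 and 5.52 to 8.52 in the other tumors. Not all genes of these lists followed Lgr5 tumor 1: Pou2af1, a B cell coactivator, lay at 7.43 to 7.76 in the muscle-bearing tumors and at 6.41 to 7.57 in the other tumors, and Madcam1, an adhesion molecule of lymphoid vessels, differed by -0.44 with overlap. Outside the comparison Glycam1 ran from 6.53 to 12.40 in the gland-labelled arrays, whose B cell list means were 5.90 to 6.03. Glycam1 alone thus does not mark B cell RNA in this series. In the K8 arrays alone 0 of the 13 T cell genes were set apart. Without K8 tumor 7, 3 of the 13 B cell genes were set apart.

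Cxcl13, the chemokine that draws B cells into follicles, behaved otherwise. It had values of 11.08 in K8 tumor 7, 11.08 in Lgr5 tumor 1 and 10.95 in Lgr5 tumor 4, against 6.56 to 8.33 in the other tumors, a difference of 3.48 (11.19-fold). The 3 arrays were close to each other in Cxcl13, unlike in Ms4a1. Of 14 immunoglobulin segments measured, 7 were set apart as higher. Among 13 macrophage genes 0 were set apart, though all 13 differences were above 0 (median 0.62). Among 9 neutrophil genes 0 were set apart, though 8 differences were above 0 (median 0.22). Neither list mean overlapped between the muscle-bearing and the other tumors. Macrophage means were 10.21 to 10.32 against 9.39 to 10.12, and neutrophil means 6.45 to 6.73 against 6.00 to 6.39.

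Fibroblast genes differed in a few members. Of 16 measured, Pi16 (1.66), a marker of adventitial fibroblasts, Fbln1 (1.54) and Dpt (1.46) were set apart, and the median was 0.45. Thbs4, a thrombospondin of muscle and tendon, had values of 10.80, 10.90 and 10.84 in K8 tumor 7 and Lgr5 tumors 1 and 4, and the other tumors had 6.40 to 7.18. Tnc, the matrix protein tenascin C, differed by 3.56. Endothelial, pericyte, nerve and red cell lists had 0 genes set apart of 14, 7, 7 and 2 measured, with median differences of -0.09, 0.37, 0.17 and 0.46. Mast cell proteases, looked at after their values were seen, were Cpa3 (3.13), Mcpt4 (2.58) and Tpsb2 (1.37), and these 3 of 10 mast cell genes were set apart.

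RNA of epithelial junction and luminal keratin genes was nearly equal in both sets. Of 18 genes of epithelial junctions and luminal keratins 0 were set apart, and the list mean was 10.53 in K8 tumor 7, 10.71 in Lgr5 tumor 1 and 10.56 in Lgr5 tumor 4, against 10.41 to 10.84 in the other tumors. Krt8, whose gene drives the recombinase in the K8 line, had values of 12.90, 12.98 and 12.83 in those arrays, against 12.80 to 13.23 in the other tumors. Subtracting each array's epithelial mean moved the median of the fast muscle list only to 3.09 and that of the adipocyte list to 1.94. The subtraction shifts all genes of an array alike, so the nearly equal epithelial means fixed this outcome in advance. It is no separate support. The muscle, fat and lymphoid differences were therefore about as large relative to these junction and keratin genes as on the raw scale.

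Contractile genes known from the myoepithelial layer were lower. Of 15 basal and myoepithelial genes, 5 were set apart as lower (Myh11, Cnn1, Mylk, Lama3 and Tagln) and 0 as higher, with a median difference of -0.53. Myh11, the smooth muscle myosin heavy chain, had values of 9.96, 10.39 and 10.26 in K8 tumor 7 and Lgr5 tumors 1 and 4, and the other tumors had 11.14 to 12.20. Cnn1, the actin-binding protein calponin, had values of 10.86, 11.30 and 11.20 in those arrays, against 11.96 to 12.76 in the other tumors. All 3 arrays lay below all 10 others in both genes, opposite to the sarcomere genes. Without K8 tumor 7, 2 of the 15 were set apart, and with K8 tumor 9 and Lgr5 tumor 10 added to the other tumors 0 were. With the adipocyte mean as a covariate 7 of the 15 basal and myoepithelial genes were lower.

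Genes outside that list but of the same kind were among the lowest of all. Actg2, the enteric smooth muscle actin, had values of 9.05, 8.55 and 8.63 in K8 tumor 7 and Lgr5 tumors 1 and 4 (mean 5.62-fold lower), and the other tumors had 10.74 to 11.80. Kcnmb1, the potassium channel subunit of smooth muscle, differed by -2.25 (4.77-fold lower). Casq2, the cardiac and slow-fibre calsequestrin, had values of 8.33, 8.62 and 8.52 in the same arrays, against 8.89 to 10.44 in the other tumors, and so went with these genes rather than with the slow muscle list that holds it. The microRNA genes Mir145a (-1.83) and Mir143 (-1.16), known for their expression in smooth muscle, were also set apart, and were looked up after their values were seen.

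Other basal genes differed by unequal amounts. Krt14, a basal keratin, averaged 11.31 ± 0.36 in the muscle-bearing tumors (SD, n = 3) and 10.87 ± 0.40 in the other tumors (SD, n = 10). Krt5, its partner keratin, differed by -0.41 and Trp63, the transcription factor of basal cells, by -0.29, neither set apart. Acta2, the smooth muscle actin most used as a myoepithelial marker, averaged 12.27 ± 0.16 in the muscle-bearing tumors and 12.67 ± 0.11 in the other tumors, with no overlap between sets but a difference of only -0.40. Lama3, a chain of the basement membrane protein laminin, differed by -1.07 and was set apart, and the P-cadherin gene Cdh3 differed by -1.11 with overlap.

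**Figure D4:**
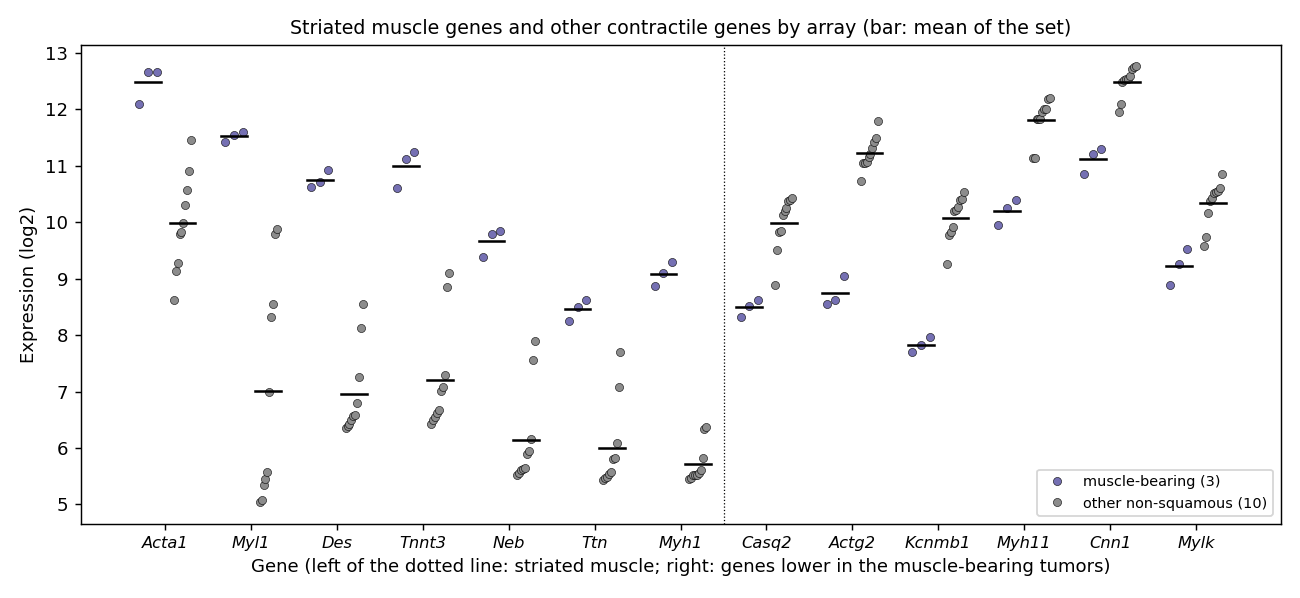
Each point is 1 array, and the y axis gives log2 expression of 7 striated muscle genes and 6 other contractile genes in the 3 muscle-bearing and the 10 other non-squamous tumors (bar: mean of the set). The muscle-bearing arrays lie above all others in the 7 genes on the left and below all others in the 6 on the right, and the 13 genes were picked for these differences.

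Most hormone-sensing genes and all measured cell cycle genes had differences below 0. Of 10 hormone-sensing genes 0 were set apart, with a median of -0.36, and the list means did not overlap (8.78 to 8.92 in the muscle-bearing tumors, 8.93 to 9.71 in the other tumors). Cited1, an estrogen receptor coactivator, averaged 10.78 ± 0.58 in the muscle-bearing tumors (SD, n = 3) and 11.77 ± 0.29 in the other tumors (SD, n = 10). Foxa1, which opens chromatin for that receptor, differed by -0.70, Esr1 by -0.38 and Pgr by 0.12. Greb1, an estrogen-induced gene, differed the other way, at 5.49 to 6.27 in the muscle-bearing tumors and at 5.18 to 5.49 in the other tumors. Of 23 cell cycle genes, Bub1 (-1.07), Top2a (-1.04) and Ccnb2 (-1.02) were set apart as lower and all 23 differences were below 0, with a median of -0.66. Centring on the epithelial mean gave a median of -0.60 for the cell cycle list. The 3 cell cycle genes set apart lay just past the threshold. With the adipocyte mean as a covariate 0 cell cycle genes were set apart, as with differences averaged within lines, which use no fat term. Without K8 tumor 7, 6 cell cycle genes were set apart, and without Lgr5 tumor 4, 1 was. The part of fat in this difference was not tested.

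Squamous genes set 1 array apart from its set. Of 13 measured, Krt6a (2.26), a stress keratin, was set apart. Krtdap, a gene of keratinizing epidermis, had values of 5.45 in K8 tumor 7, 5.46 in Lgr5 tumor 1 and 9.77 in Lgr5 tumor 4, against 5.23 to 7.71 in the other tumors. Lgr5 tumor 4 also stood alone in Klk7 (10.92), Klk6 (9.65) and Ivl (8.62), and its squamous list mean was 7.84, against 6.22 in both other muscle-bearing arrays, 5.88 to 6.68 in the other tumors and 9.51 to 9.65 in K8 tumor 9 and Lgr5 tumor 10.

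The lowest genes outside the muscle and epithelial lists included secreted proteins. Epyc, a small leucine-rich proteoglycan of cartilage and eye, had values of 5.23, 5.19 and 5.15 in K8 tumor 7 and Lgr5 tumors 1 and 4, against a lowest, median and highest value of 6.07, 9.60 and 10.83 in the other tumors. Kera, the corneal proteoglycan keratocan, differed by -2.33. The fibrinogen chains Fgg and Fgb, which the liver secretes for clotting, differed by -2.90 and -2.89. Fgg had values of 8.95, 9.90 and 9.34 in K8 tumor 7 and Lgr5 tumors 1 and 4, and the other tumors had 11.97 to 12.61. Upk3a, a urothelial membrane protein, differed by -2.57, and Htr4, a serotonin receptor, by -1.87.

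An on-off gene followed the split between sets exactly. The gene AI506816, whose values were seen before it was named here, was at 9.05, 9.38 and 9.35 in K8 tumor 7 and Lgr5 tumors 1 and 4 and at 4.80 to 4.98 in all 10 other tumors. Outside the comparison it was at 9.19 in Lgr5 tumor 2 and 10.08 in Lgr5 tumor 9, and at most 4.97 in the remaining arrays. Apobec3, which is known to differ in expression between mouse strains, was at 9.44, 9.52 and 9.32 in K8 tumor 7 and Lgr5 tumors 1 and 4, and the other tumors had 9.89 to 11.08. Outside the comparison Apobec3 was at 8.30 to 9.05 in the fat-rich Lgr5 tumors and at 9.17 to 9.84 in the gland-labelled arrays. Low values were thus not particular to the muscle-bearing tumors. Over all labelled tumors Apobec3 averaged 10.3 in the K8 line and 9.34 in the Lgr5 line (limma adjusted p = 0.0541). Within the comparison both sets hold both lines by label, and there both genes followed the split between the sets. The cause was not tested.

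The gene Lgr5, whose promoter drives the recombinase in the Lgr5 line, was higher in the muscle-bearing tumors of both lines. It had values of 8.69 in K8 tumor 7, 9.82 in Lgr5 tumor 1 and 9.74 in Lgr5 tumor 4, against 5.88 to 6.82 in 9 of the other tumors and 8.33 in Lgr5 tumor 3. It was also at 9.14 in K8 tumor 9 and in Lgr5 tumor 10, and the 5 gland-labelled arrays had 8.05 to 9.69. Both line labels thus held arrays with high and with low Lgr5 expression.

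Most genes set apart lay outside the lists. The 49 measured genes of the 4 skeletal muscle lists gave 35 of the 338 higher genes (10.4%) and 1 of the 83 lower genes. Adipocyte and brown fat lists gave 18 of 35 genes as higher, T cell, B cell and lymph node lists 5 of 32, and the 68 epithelial genes 1 as higher and 5 as lower. The remaining 265 higher and 74 lower genes were in no list. Among them were further striated muscle genes, such as Smpx (3.20) and Tmod4 (2.57), and lipid metabolism genes, such as Pnpla3 (3.15) and Gpd1 (2.47), which were named after their values were seen.

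Arrays outside the comparison took no part in calling these genes, and their values are given as a description. Lgr5 tumors 2, 6, 7, 8 and 9 are called fat-rich for their adipocyte genes, so their counts of fat genes are no independent support. For each gene the midpoint between the means of the sets was taken, and each outside array was counted by the side on which it fell. Of the 35 muscle genes, Lgr5 tumor 10 was on the muscle-bearing side for 33, and the 5 fat-rich Lgr5 tumors (2, 6, 7, 8 and 9) for only 1 to 2. Myl1 was on that side in each of those 5 arrays, with values of 9.96 to 10.40, so Myl1 alone does not mark muscle in this series. Of the 18 adipocyte and brown fat genes, the fat-rich Lgr5 tumors were on the muscle-bearing side for 14 to 18 and Lgr5 tumor 10 for 5.

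Genes in no list went with the fat-rich arrays. The 5 fat-rich Lgr5 tumors were on the muscle-bearing side for 171 to 182 of the 265 genes, Lgr5 tumor 10 for 131, K8 tumor 9 for 56 and the 5 arrays labelled gland for 32 to 93. The 83 lower genes behaved differently again. Every outside array was on the muscle-bearing side for most of them, with 74 to 78 in the fat-rich tumors, 61 in both K8 tumor 9 and Lgr5 tumor 10 and 48 to 61 in gland-labelled arrays. The lower genes thus had their high values mainly in the 10 other non-squamous tumors.

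**Figure D5:**
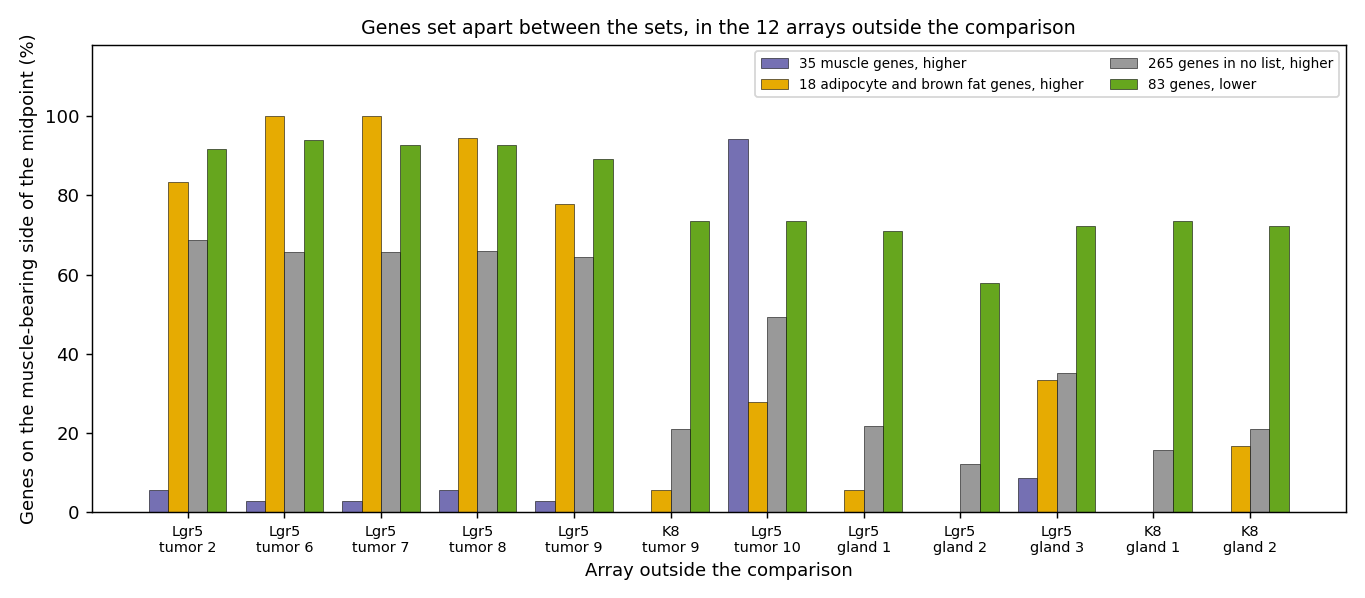
Bars give, for each of the 12 arrays outside the comparison, the percent of genes on the muscle-bearing side of the midpoint between the means of the 2 sets (y axis from 0), for the 35 muscle, 18 adipocyte and brown fat, 265 unlisted and 83 lower genes. Muscle genes reach 94.3% in Lgr5 tumor 10 and at most 8.57% elsewhere, adipocyte and brown fat genes 77.8% to 100.0% in the fat-rich Lgr5 tumors, and the lower genes at least 57.8% in every array.

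Each line gave the difference in its own arrays. K8 tumor 7 set against the 8 other K8 tumors gave 458 genes at least 1 higher and 129 at least 1 lower, and Lgr5 tumors 1 and 4 set against Lgr5 tumors 3 and 5 gave 397 and 136. The lines shared 246 higher genes, which are 53.7% of the K8 and 62.0% of the Lgr5 genes, and 57 lower genes, 44.2% and 41.9%. These 2 comparisons share no array, but the arrays were picked for the same markers. Only Cel (1.10 in K8, -1.61 in Lgr5) and Nmu (1.62 in K8, -1.33 in Lgr5) differed by at least 1 in opposite directions. The median difference of the fast muscle list was 3.17 in the K8 arrays and 3.13 in the Lgr5 arrays.

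The labelled comparison of 10 K8 tumors with 10 Lgr5 tumors did not use the choice of sets and was tested with limma. It called 1949 genes higher in K8 tumors (9.78%) and 1289 lower (6.47%), or 16.2% of all genes, at an adjusted p of 0.05. Of the 49 skeletal muscle genes, 2 passed: Casq2 was higher in K8 tumors by 2.15 ± 0.71 (SE; limma adjusted p = 0.0468) and Phkg1, a muscle phosphorylase kinase subunit, was lower by a difference of -0.51 ± 0.14 (SE; limma adjusted p = 0.0273). At an unadjusted limma p of 0.05, 5 of the 49 muscle genes passed, against 6783 of all 19937 genes. Ckm averaged 8.17 in K8 tumors and 8.38 in Lgr5 tumors, a difference of -0.22 ± 0.81 (SE; limma adjusted p = 0.886), and muscle RNA was thus not shown to differ by line.

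Fat genes did differ by line. All 18 adipocyte genes were lower in K8 tumors, with a median difference of -2.19. Adipoq averaged 8.08 in K8 tumors and 11.57 in Lgr5 tumors, a difference of -3.49 ± 0.71 (SE; limma adjusted p = 0.0232). Of 17 brown fat genes, 4 were lower in K8 tumors (Cox8b, Ebf2, Kng2 and Lhx8) and 0 higher, and without the 3 muscle-bearing tumors 7 were lower. Ucp1 missed the threshold at -2.21 ± 1.06 (SE; limma adjusted p = 0.149). The fat-rich Lgr5 tumors 2, 6, 7, 8 and 9 belong to that group, and their fat content and the line cannot be told apart. The labels do not name separate animals, so these p-values measure the spread between arrays, which may be technical.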

How the data were processed

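The authors deposited 1 table of 34760 probe sets by 25 Affymetrix whole-transcript arrays, made from 100 ng of input per the labels' protocols. The deposited values, which the authors made with affy per the submitters' processing notes (no version named), are taken as log2 from their range of 4.13 to 13.9, since the labels do not state the base. Background correction and normalization: not given in the sources used here. Array medians were 6.34 to 6.43.

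Columns were joined to labels by sample identifier. Of the probe sets, 21640 had 1 gene symbol in the platform annotation, 1321 had several and 11799 were unlisted. Symbols of 21553 matched the GRCm38.p6 gene table, which changed 0 of them. For 954 symbols with several probe sets the brightest was used, giving 19937 genes. The number of arrays limits the precision.

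Sets were compared by means, SDs and overlap. Lines were tested with limma 3.58.1 in R 4.3.3 (lmFit, eBayes, Benjamini-Hochberg adjustment, threshold 0.05). Both procedures were tested on simulated data. The 29 gene lists held 393 genes. Single-symbol probe sets covered 368 of them, and the other genes were not analysed here. Members and lists were chosen with earlier results of these data known. Genes were named by rule: the markers and isoform pairs, all muscle and brown fat list members, the 5 largest differences of each other list, Pik3ca, Krt8 and Lgr5, and the 15 highest and 15 lowest genes set apart with the same sign in each line, without gene predictions, genes of non-coding RNA and segments of immunoglobulins or T cell receptors. Genes outside the rule are said to have been named after their values were seen, or belong to the lists. Promoters came from RefSeq tables, 1 window per start site. Figures used matplotlib 3.10.9. Alternatives varied the threshold, overlap rule, probe set choice, normalization, centring, covariates and arrays used.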

Additional observations from a re-analysis of the deposited data

Results flagged for a closer look

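Among the 10 other non-squamous tumors, 6 of 62 values looked at (29 list means and 33 genes) had 1 array far from the rest by Dixon's criterion, which chance alone gives in about 1 of 20 groups. These include values of muscle, of brown fat and of the gene Lgr5. Ucp1 was at 8.10 in K8 tumor 3, against 5.46 to 5.85 in the other 9. The slow muscle list mean was 6.67 in K8 tumor 8, against 6.29 to 6.49. The gene Lgr5 was at 8.33 in Lgr5 tumor 3, against 5.88 to 6.82. The other values were the neutrophil list mean of 6.39 in K8 tumor 2 (6.00 to 6.20 in the rest), the squamous list mean of 6.68 in K8 tumor 6 (5.88 to 6.27) and Gucy1a1, a subunit of the nitric oxide receptor, at 8.38 in K8 tumor 4 (9.15 to 9.80).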

How the results depend on the processing

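The counts of genes set apart, 338 higher and 83 lower, became 773 and 370 with a minimum difference of 0.5, and 100 and 8 with a minimum of 2. With the adipocyte mean as a covariate they became 225 higher and 177 lower, and with the lymphocyte mean as a covariate 275 were lower. Lgr5 arrays alone gave 130 lower genes, and adding K8 tumor 9 and Lgr5 tumor 10 to the other set left 29. Leaving out 1 muscle-bearing tumor in turn gave 324 to 398 higher and 85 to 114 lower genes. Leaving out K8 tumors 3 and 8 from the other set, an alternative chosen after the data were seen, gave 337 and 84. Of 3729 values of genes and lists under the alternatives, 3266 moved by less than 1 SD between arrays and 460 by more. Of those 460, 405 kept their sign. Reversal was counted only for genes set apart and for lists with a median difference of at least 1, and 3 values reversed. Those 3 were Adipoq (-0.62) and Cidec (-0.65) with the adipocyte covariate and Ms4a1 (-0.42) with the lymphocyte covariate, each of which is a member of the list held constant. In the comparison of lines, array weights gave 4518 genes higher and 3517 lower in K8 tumors, and leaving out the 3 muscle-bearing tumors gave 2008 lower. Of the 49 muscle genes, 2 were higher and 4 lower with array weights, and of the 17 brown fat genes 10 were lower. The replicate block gave 2279 higher and 1382 lower. Tumor numbers do not pair the lines (r = -0.147 to 0.513 between deviations, 4 of 10 pairs over 0.1, and 1 K8 tumor best with its own number). The cause of these changes was not tested, beyond the changed rule or samples themselves. Scanner files were not used here, so background correction was not varied.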
